A study of Mus musculus with 6 samples.

Results

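The genes described are 9 transcription factor genes of pancreatic and neuroendocrine development: Isl1, Pdx1, Mnx1, Ptf1a, Rbpjl, Neurog3, Neurod1, Insm1 and Prox1. They were taken by name from the features annotated with a single gene symbol, and all 9 were found among the 19946 genes measured, each with 1 feature. Lungs were taken whole from E14.5 mouse embryos, and the RNA of each was read on 1 of 6 arrays. The 3 mutant embryos carried Shh-Cre, a recombinase driven by the Shh gene and thus expressed in the lung endoderm, with floxed alleles of the forkhead genes Foxp1, Foxp2 and Foxp4. Their genotype label writes Foxp1 flox/flox at both of the first positions, and Foxp2 was taken from the series title. The 3 control embryos carried Shh-Cre without a floxed allele on their label. Both groups thus carry the Cre allele, and both had a mixed background of C57BL/6 and 129X1. Shh-Cre acts in the endoderm, while a whole lung also holds mesenchyme, vessels and nerves, so a level cannot be assigned to a cell type. Fewer cells of a type and less RNA per cell cannot be told apart in such samples.

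The lung and the pancreas both bud from the foregut endoderm, and the lung bud is set apart by Nkx2-1. In the pancreas, Pdx1 and Ptf1a specify the progenitors, Neurog3 starts the endocrine programme, and Neurod1, Insm1 and Isl1 act in the endocrine cells that follow. Rbpjl joins Ptf1a in the complex that drives the enzyme genes of mature acinar cells. Insm1, Neurod1 and Prox1 are also used by pulmonary neuroendocrine cells, and Isl1 by neurons, by heart progenitors and by mesenchyme of the foregut.

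Isl1 rose and Rbpjl fell in the mutant lungs, and the other 7 genes did not pass the test. Isl1 was 2.66-fold higher and Rbpjl 1.95-fold lower. The genes that define pancreatic identity, Pdx1, Ptf1a and Neurog3, lay at or close to the background of the arrays in both groups, as did Mnx1 and Neurod1. The count of 2 of 9 stands beside 7.66% of all 19946 genes called at an adjusted p under 0.05 (limma, Benjamini-Hochberg over all genes), with 3.84% called higher and 3.83% called lower. The median log2 difference, mutant minus control, was 0.04 over the 9 genes and -0.01 over all genes. An unadjusted p under 0.05 was reached by 6 of the 9 genes, against 19.8% of all genes. The groups did not overlap for 5 of the 9, against 25.9% of all genes. Among the 5 are Ptf1a and Prox1, whose groups were apart by only 0.02 and 0.009. The 9 genes were chosen with earlier results of these data known, so these counts carry no test of the set.

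Because the deposited values have no detection calls, background was read from 1192 olfactory, vomeronasal and trace amine receptor genes, which the lung is not known to use. Its level on an array is the 95th percentile of these genes, which averaged 5.83 in mutants and 5.88 in controls on the log2 scale. A gene was taken as near background in a group when its mean was at or below that level. As a second yardstick, the Y-linked genes Kdm5d, Uty and Eif2s3y read between 4.15 and 4.96 in the 4 female embryos, and Xist read 5.51 and 5.77 in the 2 male embryos. Each group held 2 female embryos and 1 male embryo, judged from these genes. Mnx1, Ptf1a, Neurog3 and Neurod1, 4 of the 9, were near background in both groups, and the other 5 lay above it in both.

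**Figure D1:**
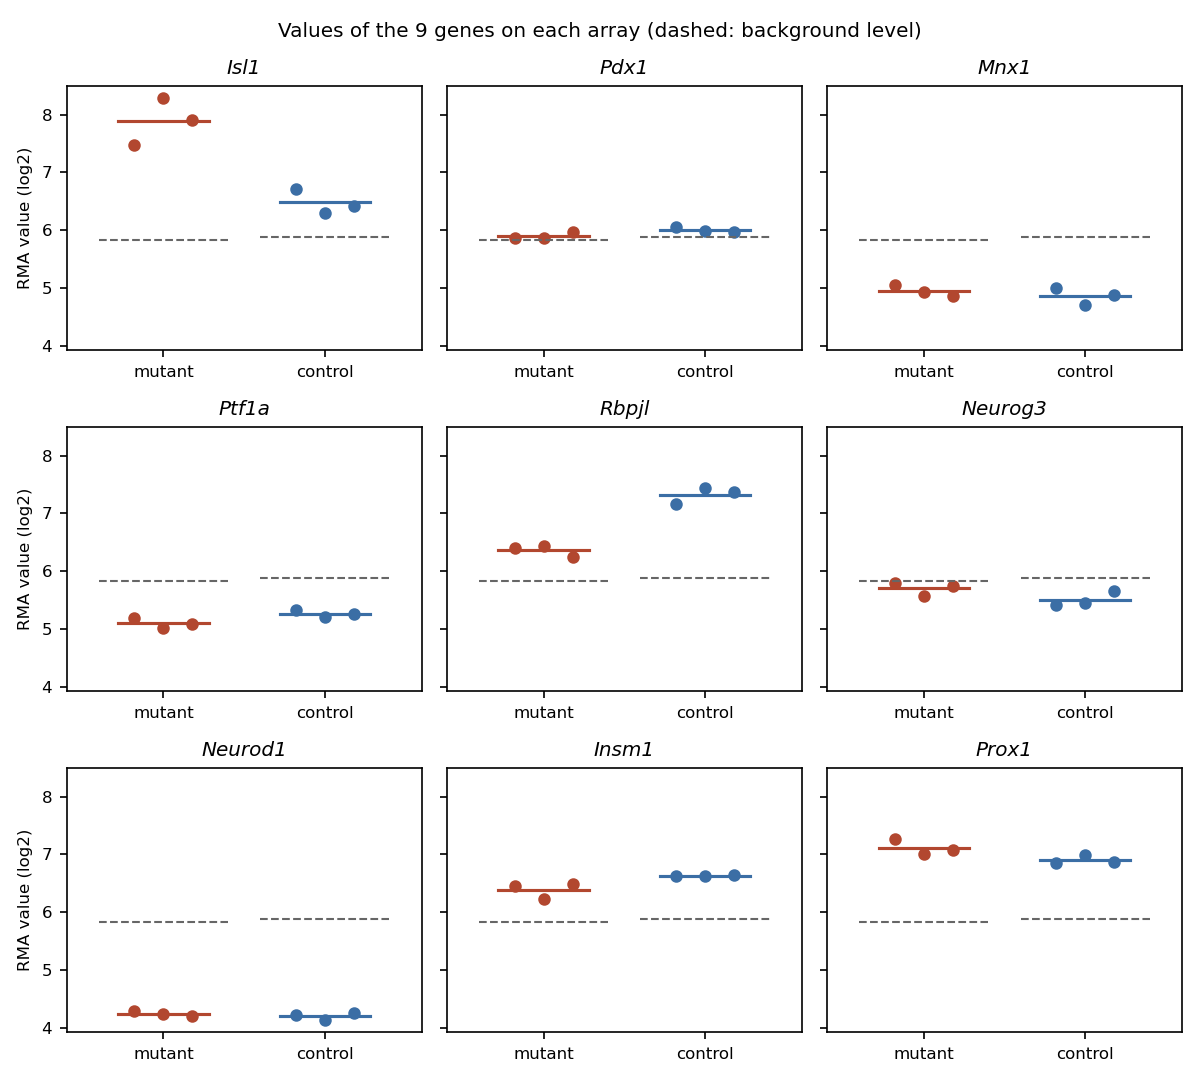
RMA value (log2) of each of the 9 genes on the 3 mutant arrays (red, left) and the 3 control arrays (blue, right); points are arrays, solid lines group means, and dashed lines the background level of the group (5.83 in mutants, 5.88 in controls). Isl1 is higher and Rbpjl lower in mutants with no overlap, while Mnx1, Ptf1a, Neurog3 and Neurod1 lie below the dashed lines on average in both groups.

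As a check of the genotype, Foxp2 and Foxp4 were lower in mutants (log2 differences of -0.95 and -0.64), and Foxp1 was at -0.31 and did not pass (limma adjusted p = 0.0661). Correlations between arrays over all genes were at least 0.994 within mutants and 0.998 within controls. The median SD per gene was 0.095 in mutants and 0.061 in controls. Mutant 1 stood apart in heart muscle genes, whose summed linear signal over 16 genes was 10654, 2276 and 2188 in mutants 1 to 3 and between 4231 and 4425 in controls.

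Isl1 encodes a LIM homeodomain factor needed for islet cells and for the mesenchyme around the dorsal pancreatic bud, and also for motor neurons and the second heart field. Its feature (10412335) read 7.48, 8.29 and 7.91 in mutants 1 to 3, against 6.72, 6.30 and 6.43 in controls 1 to 3. Every mutant value lay above every control value, with a gap of 0.76 between the lowest mutant and the highest control. The means were 7.89 ± 0.41 in mutants and 6.48 ± 0.22 in controls (SD, n = 3 each). The log2 difference was 1.41 ± 0.19 (SE), with a 95% interval of 0.96 to 1.86 and a limma adjusted p of 0.00402. The mutants spanned 0.81 log2 units and the controls 0.42, and only 1.32% of all genes had a larger SD among the mutants. Mutant 2 was the highest and mutant 1 the lowest of the mutants.

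The controls were not far from background. Their mean was above 98.7% of the receptor genes, and the mutant mean above 99.9%. Against the 99th percentile of the receptor genes (6.60 in controls) the control mean counts as background. With each control array taken at the higher of that percentile and its own Isl1 value, Isl1 was at least 2.39-fold higher in mutants. RMA draws dim values together, so a fold from a dim feature is a low estimate. The difference was 1.62 without mutant 1 and 1.21 without mutant 2, and it passed the test with any single array left out.

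The promoter of Isl1 is shown here, with that of Rbpjl further on, because these 2 genes passed the test. The deleted genes encode DNA-binding repressors, and whether they act at either promoter was not tested. The sequences are from RefSeq (build GRCm38.p6) and run from 250 bases before to 50 after the annotated start. Both strands were searched for the forkhead motifs TGTTTAC and TGTTTGC, the E-box CANNTG of bHLH factors and the Rbpj core TGGGAA. Of 32851 promoters of this length, 3.6% hold TGTTTAC, 5.1% TGTTTGC, 72.3% the E-box and 25.6% the Rbpj core. The Isl1 promoter lies at chr13:116309639-116309938 on the minus strand, and its capitals mark the single E-box found, which starts at position -103 from the annotated start.
Isl1: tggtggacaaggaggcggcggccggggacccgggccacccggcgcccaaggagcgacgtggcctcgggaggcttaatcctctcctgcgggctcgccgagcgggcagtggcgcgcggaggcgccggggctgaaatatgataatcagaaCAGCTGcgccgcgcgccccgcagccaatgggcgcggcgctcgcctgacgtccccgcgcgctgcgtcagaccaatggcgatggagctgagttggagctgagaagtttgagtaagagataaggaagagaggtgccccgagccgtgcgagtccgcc
This window holds no match to either forkhead motif or to the Rbpj core, which says only that these letters are not in it. Its GC content is 69%.

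By the smallest root mean square distance over the 6 arrays, after centring on the control mean, the genes nearest to Isl1 were Gpx2, Crabp2, Hoxa13, Gata3 and Rassf6, at distances of 0.10 to 0.14 log2 units. Gpx2 encodes a glutathione peroxidase of epithelia and was at 9.16 ± 0.38 in mutants and 7.83 ± 0.17 in controls. Crabp2, a carrier of retinoic acid, was at 8.42 ± 0.46 in mutants and 7.03 ± 0.16 in controls. Hoxa13, a homeobox gene of the hindgut and the limb tips, was at 7.37 ± 0.53 in mutants and 5.96 ± 0.20 in controls (SD, n = 3 each). In these 3 genes and in Rassf6, as in Isl1, mutant 2 was the highest and mutant 1 the lowest mutant. Gata3, a zinc finger factor of sympathetic neurons and of several epithelia, had the same order, at 8.31 in mutant 2, 7.99 in mutant 3 and 7.88 in mutant 1. Without control 3, Hoxa13 no longer passed (limma adjusted p = 0.0528). These genes were chosen for their likeness, so it is a description and carries no test.

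**Figure D2:**
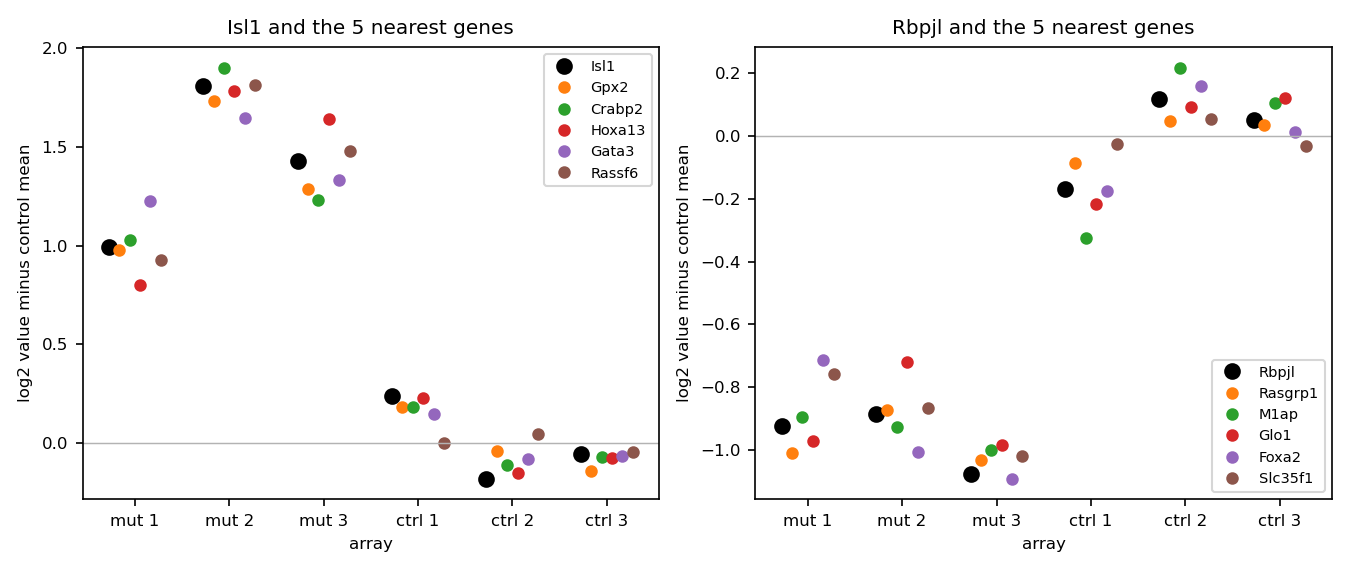
Log2 value minus the mean of the 3 control arrays, for each array, of Isl1 (left) and Rbpjl (right) in black and of the 5 genes nearest to each in colour; mut is mutant, ctrl is control, and points of 1 array are offset sideways for legibility. Isl1 and its nearest genes are highest in mutant 2, and Rbpjl and its nearest genes lie between -0.71 and -1.09 in the mutants.

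Among the LIM homeobox genes and the cofactors they bind, 3 of 17 rose, 0 fell and the remaining 14 were not called, beside 3.84% of all genes called higher and 3.83% called lower. Their median log2 difference was 0.09, against -0.01 for all genes. Ldb2, a cofactor that bridges LIM factors, rose to 10.94 ± 0.07 in mutants, against 10.41 ± 0.055 in controls (SD, n = 3 each; difference 0.53 ± 0.06 SE, limma adjusted p = 0.00175). Lmo3, which encodes a LIM-only protein, rose by 0.39 (adjusted p = 0.00737). Ssbp2, a partner of the Ldb proteins, rose by 0.29 (adjusted p = 0.0204), a call lost without mutant 3 or any single control (adjusted p up to 0.103). The 3 genes that rose are cofactor or LIM-only genes, and no LIM homeobox gene of the list passed. Isl2, the closest relative of Isl1, was at 6.28 in mutants and 6.13 in controls and did not pass (adjusted p = 0.382). Lmo1, another LIM-only gene, was at -0.29 and did not pass (adjusted p = 0.0535), but it passed in 4 of 15 alternative fits.

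Cell types that use Isl1 were read from lists of their genes. In the list for stomach and foregut mesenchyme, 3 of 9 genes rose and 1 fell, beside the same 3.84% and 3.83% of all genes. Gata3 rose by 1.40 ± 0.12 (SE) and Tlx1, a homeobox gene of the spleen primordium, by 1.18 ± 0.16, with limma adjusted p of 0.000313 and 0.00398. Foxf2 rose by 0.46. The mesenchymal forkhead gene Foxf1 fell by 0.38, a call lost without any single control (adjusted p up to 0.0989). The other 5 genes did not pass, among them Barx1 (-0.08), Nkx3-2 (-0.06) and Nkx2-3 (-0.04), with limma adjusted p from 0.617 to 0.854. Gata3 is also counted in the list for neurons below. The list's summed linear signal was 5020 to 5587 in mutants and 5411 to 5649 in controls.

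In the list for the second heart field and cardiopulmonary progenitors, 3 of 13 genes rose (3.84% of all genes did) and 1 fell (3.83% of all genes did); without mutant 3, 5 rose, and without mutant 2, 2 fell. Eya1, a transcriptional coactivator, rose by 1.41 ± 0.10 (SE), the growth factor genes Fgf10 by 0.77 ± 0.06 and Fgf8 by 0.57 ± 0.08, and Tbx1, a T-box gene of the pharynx, fell by 1.49 ± 0.09 (limma adjusted p from 8.94e-05 to 0.0034). Its summed signal was 7652 to 8484 in mutants and 7115 to 7254 in controls. Nkx2-5, the homeobox factor of heart progenitors, read 7.76 in both groups. In the heart muscle list 0 of 16 genes passed, also at an unadjusted p under 0.05, but 5 of them fell when mutant 1 was left out. The genes of smallest p were Actc1 (-1.42 ± 0.65, adjusted p = 0.278) and Ryr2 (0.36 ± 0.25, adjusted p = 0.522) with all arrays.

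In the list for neurons and autonomic ganglia, 1 of 23 genes rose, Gata3, and 1 fell, Ret, with 3.84% of all genes called higher and 3.83% lower; without mutant 2 or without mutant 3, 3 genes rose. Ret encodes a receptor of autonomic precursors and was at 6.65 ± 0.12 in mutants and 7.51 ± 0.09 in controls (SD, n = 3 each; adjusted p = 0.000578). The list's summed signal was 2424 to 3102 in mutants and 2269 to 2391 in controls, highest in mutant 1. The neuronal genes Stmn2 (7.60 in mutants and 7.62 in controls) and Prph (6.22 in both) did not pass, and Tubb3 and Elavl4 were near background in both groups. Phox2a (0.44 ± 0.11 SE, limma adjusted p = 0.0502) and Gap43 (0.38 ± 0.11, adjusted p = 0.0848) were higher but did not pass. They did pass in 7 and 3 of 15 alternative fits. Mutants lay wholly above controls for 3 genes of the list and wholly below for 2, with no overlap in 25.9% of all genes. Whether any of these cell types takes part in the Isl1 difference was not tested.

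**Figure D3:**
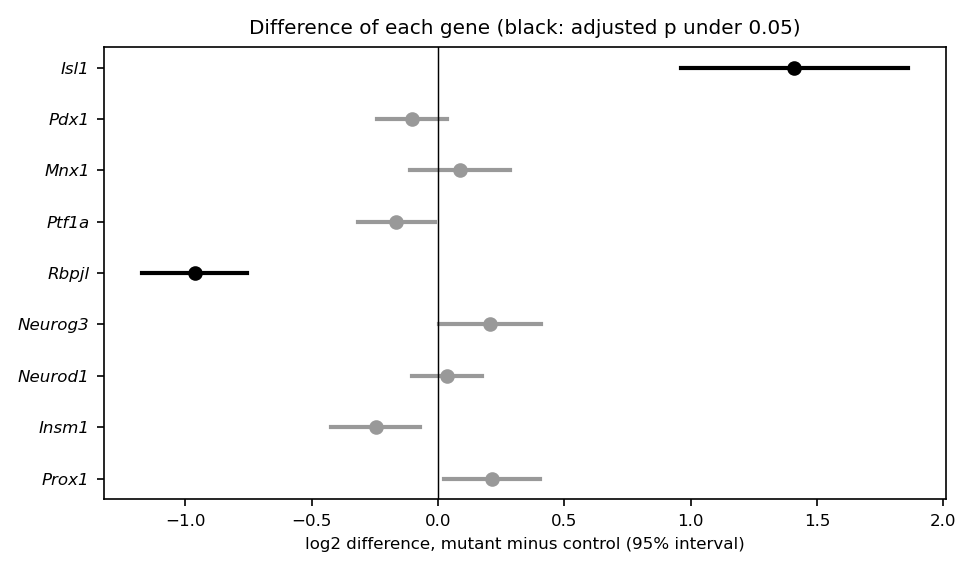
Log2 difference, mutant minus control, of each of the 9 genes with its 95% interval from the limma fit, black where the adjusted p is under 0.05 and grey otherwise. Isl1 is at 1.41 and Rbpjl at -0.96, and the intervals of the other 7 lie between -0.42 and 0.41.

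Rbpjl encodes a relative of the Notch effector Rbpj that takes the place of Rbpj in the acinar complex with Ptf1a and does not bind Notch. Its feature (10478474) read 6.40, 6.44 and 6.25 in mutants 1 to 3, against 7.16, 7.45 and 7.38 in controls 1 to 3. The groups were apart by 0.72, and the mutants spanned only 0.19. The means were 6.36 ± 0.10 in mutants and 7.33 ± 0.15 in controls (SD, n = 3 each). The log2 difference was -0.96 ± 0.09 (SE), with a 95% interval of -1.17 to -0.76 and a limma adjusted p of 0.000575. The mutant mean was above 98.6% of the receptor genes but below their 99th percentile (6.55). Reckoned in the same way, with each mutant array at the higher of that percentile and its own value, Rbpjl was at least 1.71-fold lower in mutants. The difference lay between -0.90 and -1.05 with single arrays left out and passed each time.

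The Rbpjl promoter lies at chr2:164402944-164403243 on the plus strand (GRCm38.p6). Capitals mark, from left to right, the Rbpj core, both E-boxes and a forkhead motif that reads TGTTTGC on the other strand. They start at positions -104, -93, -82 and -64 from the annotated start.
Rbpjl: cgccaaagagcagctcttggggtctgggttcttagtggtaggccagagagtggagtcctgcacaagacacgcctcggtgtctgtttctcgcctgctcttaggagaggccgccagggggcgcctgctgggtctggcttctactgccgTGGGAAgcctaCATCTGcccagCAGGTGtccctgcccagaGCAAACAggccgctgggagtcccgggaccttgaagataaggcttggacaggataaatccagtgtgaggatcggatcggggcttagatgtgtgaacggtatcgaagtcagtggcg
Among the 8 genes of the set with a promoter in the RefSeq table, TGTTTGC was also found once in 1 of the 2 Prox1 promoters, and TGTTTAC in none. A match is a stretch of letters and was not tested as a binding site.

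The neighbours of Rbpjl on chromosome 2 fell as well. Matn4, which encodes a matrix protein of cartilage, lies on the opposite strand, and the RefSeq spans of these genes overlap at their 5′ ends. Matn4 read 6.29, 6.39 and 6.21 in mutants 1 to 3, against 7.16, 7.03 and 7.19 in controls 1 to 3. Its log2 difference was -0.83 ± 0.07 (SE, limma adjusted p = 0.000427), and mutants and controls did not overlap. Sdc4, the heparan sulfate proteoglycan gene on the other side, read 8.41 ± 0.08 in mutants and 8.99 ± 0.07 in controls (SD, n = 3 each; difference -0.57, adjusted p = 0.00163). Whether the array reads the strands apart is not given in the sources used here, so a share of Matn4 transcripts in the Rbpjl signal was not tested. The neighbours of Isl1 are far from it, Parp8 by 541153 bases and Itga1 by 1196305, whereas Sdc4 lies 8798 bases from Rbpjl. Both were higher in mutants: Parp8 by 0.48 (adjusted p = 0.00205) and Itga1 by 0.35 (adjusted p = 0.0382). The call of Itga1 was lost without mutant 1, mutant 3 or any single control (adjusted p up to 0.144).

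**Figure D4:**
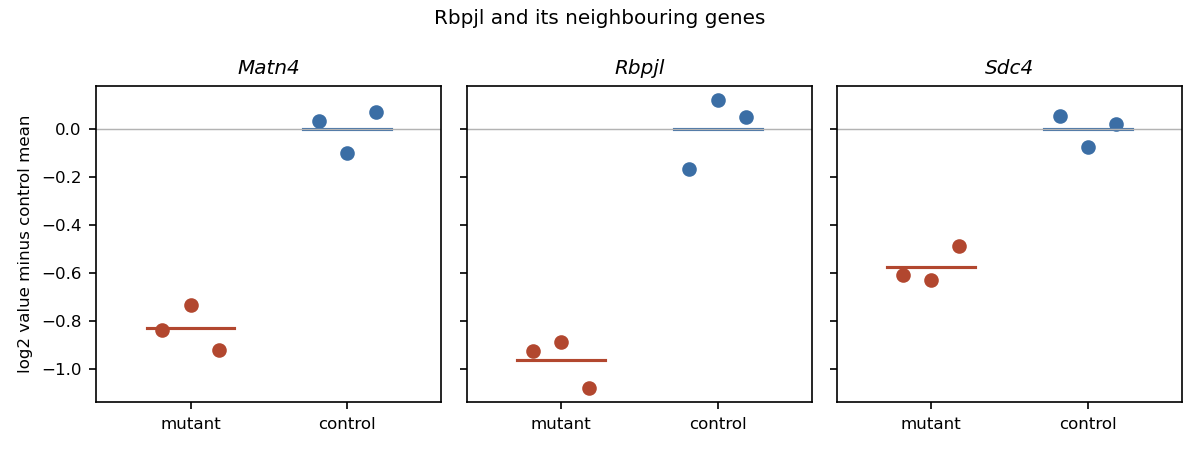
Log2 value minus the control mean of Matn4, Rbpjl and Sdc4, which follow each other on chromosome 2, on the 3 mutant arrays (red, left) and 3 control arrays (blue, right); bars are group means. All 3 genes are lower in mutants without overlap, by 0.83, 0.96 and 0.57 on average.

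Some other cartilage genes were lower too. Of 19 genes in that list 4 fell, Matn4 among them, against 3.83% of all genes. A single gene, 1 of the 19, rose, against 3.84% of all genes. It was Sox5, whose call was lost without any single control. The median over the list was -0.15. Cytl1 fell by 1.80 ± 0.15 (SE), Mia by 1.78 ± 0.11 and chondromodulin (Cnmd) by 1.42 ± 0.15, with limma adjusted p up to 0.00105. The Mia mean in mutants, 5.51, lay below the background level. Of the 19 genes, 14 lay above that level in mutants and 15 in controls. The other 14 genes did not pass, among them Col2a1 (-0.16, limma adjusted p = 0.356) and Hapln1 (0.21, adjusted p = 0.0879). The summed cartilage signal, which includes the 4 genes that fell, was 3202 to 3469 in mutants and 3847 to 3948 in controls. Genes shared by most epithelia fell in 6 of 12 cases, against 3.83% of all genes, and rose in 0, with a summed signal of 8262 to 10219 in mutants and 12429 to 13040 in controls. Without controls 1, 2 or 3 in turn, 2, 2 and 3 of the 12 were called lower. The keratin gene Krt8 (-1.03) and the protease gene St14 (-0.75) fell whichever array was left out, while the calls of Elf3 (-0.49) and Cldn6 (-0.48) were lost without any single control (adjusted p up to 0.155 and 0.0622), and that of Elf3 also without mutant 2. The part of either tissue in the Rbpjl difference was not tested.

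Rbpj, the E-protein genes and the enzyme genes that Rbpjl drives in the pancreas did not pass the test. Rbpj itself read 10.47 ± 0.04 in mutants and 10.43 ± 0.05 in controls (SD, n = 3 each; adjusted p = 0.798). The E-protein gene Tcf3 read 10.53 ± 0.13 in mutants and 10.52 ± 0.07 in controls (limma adjusted p = 0.978). In the list of Rbpj, Tcf3 and Tcf12, 0 of the 3 genes passed, also at an unadjusted p under 0.05. Of 13 acinar genes 0 passed, against 3 at an unadjusted p under 0.05, with a median of -0.05, and the summed signal was 1113 to 1125 in mutants and 1100 to 1118 in controls. The smallest p belonged to the phospholipase gene Pla2g1b (0.31 ± 0.09 SE, adjusted p = 0.0964) and the carboxypeptidase gene Cpb1 (-0.32 ± 0.10, adjusted p = 0.12). Pla2g1b passed without mutant 1, and 1 acinar gene, Cpb1, was called lower without mutant 2.

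By their distance to Rbpjl over the 6 arrays, Rasgrp1, M1ap, Glo1, Foxa2 and Slc35f1 came nearest, at 0.06 to 0.10 log2 units. Rasgrp1, an activator of Ras, was at 6.00 ± 0.09 in mutants and 6.97 ± 0.07 in controls. Foxa2, a pioneer forkhead factor of the endoderm, was at 7.08 ± 0.20 in mutants and 8.02 ± 0.17 in controls (SD, n = 3 each). Its log2 difference of -0.94 was close in size to that of Rbpjl, and the likeness again carries no test.

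Ptf1a, the bHLH factor that specifies pancreatic progenitors and acinar cells, read 5.19, 5.02 and 5.09 in mutants 1 to 3, against 5.32, 5.21 and 5.26 in controls 1 to 3. All mutant values were below the control values, by 0.02 at the nearest. The difference of -0.16 ± 0.07 (SE) did not pass (limma adjusted p = 0.208), and both means lay below the background level.

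Pdx1, the homeodomain factor of the pancreatic bud and of beta cells, read 5.86, 5.87 and 5.97 in mutants, against 6.06, 5.99 and 5.97 in controls. The groups overlapped, and the means of 5.90 in mutants and 6.00 in controls were only just above background. The difference was -0.10 ± 0.06 (SE), with a 95% interval of -0.24 to 0.03 and a limma adjusted p of 0.407. Mnx1, a homeodomain factor of motor neurons and the dorsal pancreatic bud, read 4.95 ± 0.09 in mutants and 4.86 ± 0.14 in controls (SD, n = 3 each; adjusted p = 0.68), near background in both.

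Neurog3, the bHLH factor that commits pancreatic cells to the endocrine fate, read 5.80, 5.57 and 5.75 in mutants, against 5.42, 5.44 and 5.65 in controls. Mutant 2 lay below control 3, and both means were near background. The difference of 0.21 ± 0.09 (SE) did not pass (limma adjusted p = 0.24). Its target Neurod1 was the dimmest relative to background, at 4.24 ± 0.04 in mutants and 4.20 ± 0.07 in controls (SD, n = 3 each; adjusted p = 0.819). Only 38.5% of the receptor genes read below it in mutants and 34.1% in controls.

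Insm1, a zinc finger factor of endocrine, neuroendocrine and newborn nerve cells, read 6.45, 6.23 and 6.48 in mutants 1 to 3, against 6.63, 6.63 and 6.64 in controls 1 to 3. The controls differed by only 0.004, and all mutants lay below them. The difference of -0.25 ± 0.08 (SE) had an unadjusted p of 0.0115 and a limma adjusted p of 0.102, so it did not pass. It had the smallest adjusted p of the 7 genes that did not pass.

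Prox1, a homeodomain factor that sets lymphatic endothelial identity and acts in pancreatic and liver progenitors, read 7.27, 7.01 and 7.07 in mutants 1 to 3, against 6.85, 6.997 and 6.87 in controls 1 to 3. The groups did not overlap, by a margin of 0.009. The difference of 0.21 ± 0.08 (SE) did not pass (limma adjusted p = 0.197). In the list of lymphatic endothelial genes 0 of 9 rose and 1 fell, against 3.83% of all genes called lower. It was Pdpn (-0.52 ± 0.10), whose call was lost without control 1 or control 3 (adjusted p up to 0.0795); without mutant 1, 2 genes of the list fell. Lyve1, a receptor of lymphatic endothelium and macrophages, read 10.14 in mutants and 10.15 in controls, and the summed signal of the list was 5208 to 5597 in mutants and 5178 to 5536 in controls.

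For the 7 genes that did not pass, the 95% intervals reached from -0.42 to 0.41, or at most 1.34-fold lower and 1.325-fold higher in mutants. These limits hold for the deposited values only, since a gene at background can change without a change in its reading.

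The factors around them in the endoderm were read as lists. Of 15 pancreatic progenitor and foregut endoderm factors 4 fell, against 3.83% of all genes, and 0 rose, and the median was -0.15. The falls were Sox2 (-2.08 ± 0.17 SE), Foxa2 (-0.94 ± 0.12), Nkx2-1 (-0.88 ± 0.11) and Sox9 (-0.84 ± 0.07), with limma adjusted p from 0.000268 to 0.0026. Of these, Nkx2-1 and Sox2 mark the lung endoderm and its airways, whereas Foxa2 and Sox9 are shared by lung and pancreas. In the list of later endocrine factors 0 of 11 genes passed, against 1 at an unadjusted p under 0.05, with a median of -0.04, and the genes of smallest p were Runx1t1 (0.15, adjusted p = 0.195) and St18 (-0.14, adjusted p = 0.288).

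Of 17 islet hormone and granule genes 0 passed, against 1 at an unadjusted p under 0.05, with a median of -0.01 and a summed signal of 1142 to 1263 in mutants and 1222 to 1289 in controls. The genes of smallest p were the pancreatic polypeptide gene Ppy (-0.26 ± 0.08 SE, limma adjusted p = 0.0941) and the prohormone convertase gene Pcsk1 (-0.21 ± 0.10, adjusted p = 0.304). The insulin gene Ins2 (5.79 in mutants and 5.87 in controls) and the glucagon gene Gcg (5.11 in mutants and 5.08 in controls) were near background in both groups.

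In the list for pulmonary neuroendocrine cells 1 of 12 genes rose and 3 fell (1 without control 3), beside 3.84% and 3.83% of all genes, and the median was -0.01. Rab3c, a vesicle protein gene, fell to 5.09 ± 0.14 in mutants, against 5.77 ± 0.09 in controls, although both means lie below the background level (SD, n = 3 each; limma adjusted p = 0.00229). The matricellular gene Ccn3 fell by 0.91, a call lost without control 3 (adjusted p = 0.0616). The calls of Cplx2 (-0.28) and of the calcium channel gene Cacna2d1 (0.36) were lost without any single control and without mutants 1 or 2 for Cplx2 (adjusted p up to 0.165), or mutants 2 or 3 for Cacna2d1 (adjusted p up to 0.159). The neuroendocrine genes Uchl1 (7.79 in mutants and 7.72 in controls), Grp (7.47 in mutants and 7.28 in controls) and Hes6 (8.32 in mutants and 8.58 in controls) did not pass. For Hes6 the limma adjusted p was 0.1035. Uchl1 read 7.48, 8.37 and 7.51 in mutants 1 to 3, so its mutant mean rests on mutant 2. The summed signal was 2336 to 2387 in mutants and 2324 to 2375 in controls.

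**Figure D5:**
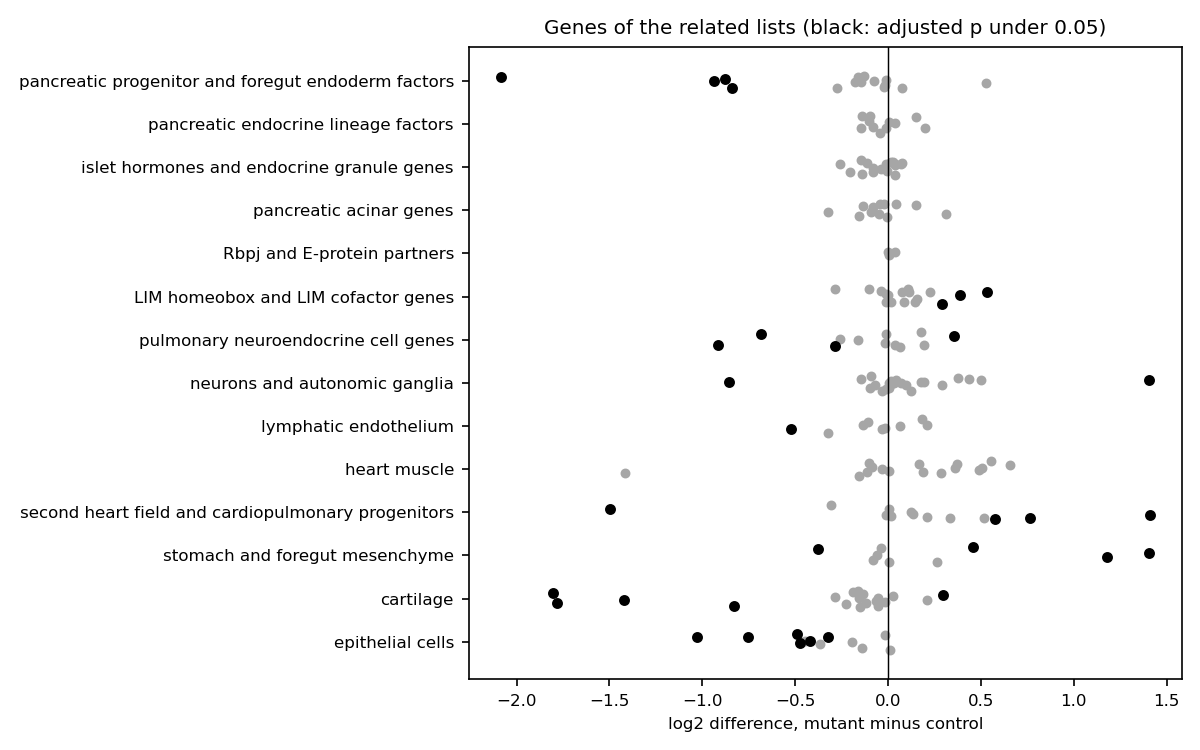
Log2 difference, mutant minus control, of the genes measured in each of 14 lists, 1 point per gene, black where the limma adjusted p is under 0.05 and grey otherwise; vertical scatter within a list has no meaning. No gene passes in the lists of later endocrine factors, islet hormones, acinar genes, Rbpj and E-protein genes, and heart muscle. In the epithelial list 6 of 12 genes fall.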

How the data were processed

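RMA values in log2 units were deposited by the authors. The submitters' processing notes list RMA, oligo and limma, with no settings. Per the labels' protocols, 100 ng of total RNA per sample was amplified from an oligo(dT) primer and labelled with biotin. Of 35556 features, 21797 carry a single gene symbol. For a gene with several features the one of highest mean over the arrays was used, which gave 19946 genes. Array medians lay between 7.32 and 7.37 over these genes. Precision is set by 3 arrays per group.

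Mutants and controls were compared with limma 3.58.1 in R 4.3.3 (two-sided, genotype as the only term, 7.96 moderated degrees of freedom), with Benjamini-Hochberg adjustment over all genes and a threshold of 0.05. The comparison was tested on simulated data. Replicates are separate embryos. Alternatives were another normalization or centring, the filter on dim genes, the feature rule, the moderation, array weights, the replicate number, embryo sex, and single arrays left out.

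The 9 genes and the 14 lists (184 genes measured of 202) were chosen with earlier results of these data known. Named genes are the 9, the targeted genes, the 5 genes nearest to each one past the threshold, its neighbours, and per list up to 4 genes past the threshold with the largest difference, or the 2 of smallest p. Sox5 and the neighbours Tspan15, Gsx1 and Cdx2 were chosen after their values were seen. So were the other genes named as cell type markers (Isl2, Nkx2-5, Stmn2, Prph, Tubb3, Elavl4, Lyve1, Ins2, Gcg, Uchl1, Grp). Lmo1, Phox2a, Gap43, Col2a1, Hapln1 and Hes6, which did not pass, also fall outside this rule and were named with their values known. The same holds for the genes named from the stomach and foregut mesenchyme list that did not pass.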

Additional observations from a re-analysis of the deposited data

How the results depend on the processing

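Under all 15 alternatives, 2 of the 9 genes passed the test. Isl1 lay between 1.21 and 1.62 (adjusted p up to 0.0257) and Rbpjl between -1.05 and -0.90 (adjusted p up to 0.00586). The other 7 did not pass in any alternative that tested them, and 5 of them were not tested when the dimmest genes were left out. Neurod1 lay between -0.00237 (without control 2) and 0.0642 (without control 3) with single arrays left out. The count of all genes called was 774 to 1745 with single arrays left out, against 1528, and it was lowest without a control (876, 793 and 774 without controls 1, 2 and 3). With the replicate number as a block, 1137 genes were called, Isl1 was at 1.41 (adjusted p = 0.0125) and Rbpjl at -0.96 (adjusted p = 0.0021). Same-numbered embryos had correlated deviations of -0.069 to 0.154 over 3 pairs, so the numbers were not taken as pairs, and the block ended no call among the 9. It ended those of Ssbp2, Foxf1, Sox5, Itga1, Elf3 and Cplx2, and 3 epithelial genes were called lower with it, against 6 without. With sex as a covariate the calls of Itga1, Elf3, Cplx2 and Cacna2d1 were lost. Averaged features ended those of Foxf1 and Cacna2d1, repeated quantile normalization and the test of all features that of Elf3, and trended moderation that of Cplx2. With the 75th percentile of the receptor genes as background, 1 gene instead of 4 was near it in both groups. With the 99th percentile, Pdx1 joined the 4 in both groups. Isl1 was then near background in controls, and Rbpjl and Insm1 in mutants, while Prox1 lay above it in both groups. Of 420 counts of called genes per list, direction and alternative, 378 stayed within 1.5 times and 42 moved. Counts that were 0 with and without the alternative are among the 378, so this share says little about lists with called genes. The values give no signal over background, so dim genes are not shown to be unchanged.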

Other observations

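The genes next to the 7 factors that did not pass were measured as well. Of 14 such neighbours 1 passed the test, against 7.66% of all genes. It was Tspan15, a tetraspanin gene beside Neurog3, at 7.83 ± 0.26 in mutants and 8.47 ± 0.07 in controls (SD, n = 3 each; difference -0.65, limma adjusted p = 0.0173), and its call was lost without any single control (adjusted p up to 0.0795). The homeobox genes on both sides of Pdx1, Gsx1 (6.39 in mutants and 6.36 in controls) and Cdx2 (5.54 in mutants and 5.62 in controls), did not pass.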
